A study of Arabidopsis thaliana with 4 samples.

Results

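Cytochromes P450 are haem-containing monooxygenases, and the genes described here are the 23 whose symbol gives a P450 family, subfamily and member number and which had a probe set annotated to that gene alone. They are 23 of 13350 genes with such a probe set. The symbols were those of the platform annotation, updated through RefSeq's gene list for assembly TAIR10.1. RefSeq gives 236 genes of 60 subfamilies a symbol of this form, so the 23 cover a small and uneven share of the family. Of the 23, 19 belong to the subfamily CYP71B, out of 36 CYP71B genes in RefSeq. The other 4 are CYP51G2, CYP78A9, CYP79A2 and CYP84A4, each the lone gene of its subfamily here. All but CYP51G2 fall in clan 71, the large clan of plant P450s that holds most enzymes of specialised metabolism, and CYP51G2 falls in clan 51. Another 2 probe sets were annotated to several genes, at least one of them a P450, and were not used.

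Plant P450s sit on the endoplasmic reticulum, take electrons from a P450 reductase and insert an oxygen atom into small molecules. In this way they help to build sterols, hormones, phenylpropanoids and defence compounds. The CYP71B subfamily has expanded in the Arabidopsis lineage by tandem duplication, and most of its enzymes have no settled substrate. Phytochromes A and B sense red and far-red light, and seedlings without them cannot respond normally to it.

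The samples were dark-grown seedlings of Arabidopsis thaliana ecotype Columbia, either wild type or a double mutant carrying the alleles phyA-211 and phyB-9, with 2 Affymetrix ATH1 arrays per genotype. Both genotypes were treated alike. Chilling lasted 5 days at 6 °C on 0.8% agar, followed by a 1 h pulse of white light to trigger germination and 3 days of darkness, both at 22 °C. The comparison asks how transcript levels after the light pulse and 3 days of darkness differ when both receptors are missing. The deposited values were intensities per probe set, already scaled between arrays by the authors. The summed intensity ran from 76027250 to 77974921 per array. Over the tested probe sets, the wild-type arrays correlated with each other at 0.9505 and the mutant arrays at 0.9167. Mutant array 1 stood further from the wild type, at 0.8858 and 0.9005, than mutant array 2, at 0.9358 and 0.9467. PHYA and PHYB themselves were not analysed here, so the genotype labels were not checked against the mutated genes. Whole seedlings were extracted, so fewer cells of a type and less RNA per cell cannot be told apart. The dark-grown seedling marker ICL, for isocitrate lyase, had intensities between 132927 and 142038. PORB, for a protochlorophyllide oxidoreductase, had between 59615 and 100743, and EXPA8 between 21226 and 26682. Their differences were -0.04, 0.37 and -0.22. The leaf markers RCA, between 37256 and 63829, and LHCB4.2, between 13768 and 23717, were bright too, so these intensities do not separate the 2 lists. Of the 16 markers listed for dark-grown seedlings, 3 had a probe set, and none of the 9 root markers had one.

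No P450 gene passed an adjusted p of 0.05 between the genotypes in limma. Of the 23 genes, 7 were bright enough to be tested, all of them CYP71B genes, and 0 of these 7 passed, against 0.0953% of the 13648 probe sets tested. At an unadjusted p under 0.05 in limma 0 of the 7 passed as well, against 7.24% of tested probe sets. Log2 differences, given as mutant minus wild type on the scale log2(intensity + 70.1), ran from -1.04 for CYP71B35 to 0.43 for CYP71B28. Their median was -0.39, beside 0.00 over all tested probe sets. The median log2 level of the 7 genes on an array had an SD of 0.36 between arrays of 1 genotype. That SD is a spread of levels, not of the difference. Against the wild-type mean, the median difference was -0.61 for mutant array 1 and -0.36 for mutant array 2. For 5 of the 7, the 2 mutant values were both under the 2 wild-type values, against 18.3% of tested probe sets, and for 0 of the 7 they were both over them, against 20.0%. The 5 were CYP71B34, CYP71B35, CYP71B23, CYP71B29 and CYP71B6. A difference of at least 2-fold without overlap was seen for 1 of the 7, CYP71B35, which was lower, against 0.953% lower and 1.99% higher among tested probe sets. All 7 were read from the same 4 arrays, so they are not separate observations. Over all 23 genes the median difference was -0.01, beside 0.01 over all 22746 probe sets, with 11 means higher and 12 lower in the mutant.

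**Figure D1:**
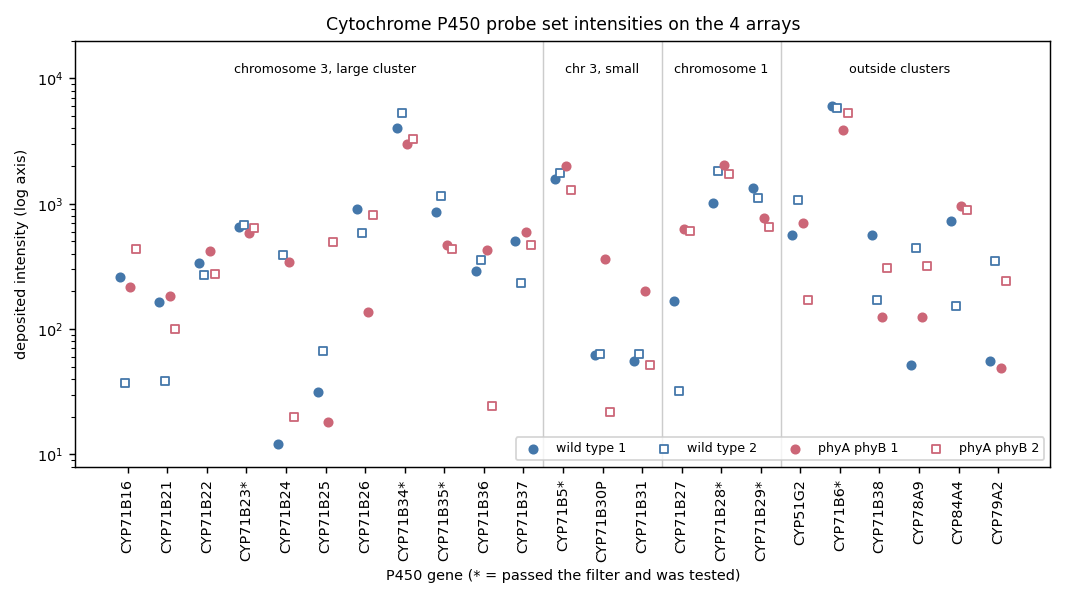
Deposited intensity (log axis) of each P450 probe set on the 4 arrays, in genome order within each group of neighbouring genes. Circles are array 1 and squares array 2 of a genotype, wild type in blue and phyA phyB in red. Stars mark the 7 tested genes. For CYP71B34 and CYP71B35 both mutant points lie below both wild-type points, and for CYP71B27 both lie above.

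The largest group comes from 1 stretch of chromosome 3. From CYP71B16 to CYP71B37, 18 of the 25 genes that RefSeq lists in this stretch are CYP71B genes, and 11 of these 18 were measured. Near its end CYP71B34, CYP71B35, CYP71B36 and CYP71B37 stand next to each other. CYP71B34 (AT3G26300) had intensities of 4055 and 5285 in the wild type and 3007 and 3268 in the mutant. Both mutant arrays were below both wild-type arrays. Its difference was -0.55 (SE 0.25, n = 2 arrays per genotype, 95% interval -1.11 to 0.01, limma), with an unadjusted p of 0.0531 and an adjusted p of 0.694. CYP71B35 (AT3G26310), the next gene, had 861.4 and 1164 in the wild type and 470.3 and 432.5 in the mutant. The groups again did not overlap, with arrays 1.35-fold apart in the wild type and 1.09-fold apart in the mutant. Its difference of -1.04 (SE 0.47, n = 2 per genotype, 95% interval -2.10 to 0.02, limma) was the lowest among the 23 genes, at an unadjusted p of 0.053 and an adjusted p of 0.694. Both intervals reached past 0, so neither gene was shown to differ.

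The following 2 genes of the row did not share this pattern. CYP71B36 had 288.7 and 354.4 in the wild type and 431.4 and 24.1 in the mutant, where one array was above and the other far below the wild type. CYP71B37 had 499.8 and 235.1 in the wild type and 597.1 and 470.0 in the mutant, with overlapping groups and a difference of 0.53. Neither passed the filter on dim probe sets, so neither was tested.

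In the first part of the stretch, CYP71B21, CYP71B22 and CYP71B23 are direct neighbours. CYP71B23 was the steadiest of all, with 654.4 and 680.9 in the wild type and 584.3 and 638.2 in the mutant. Both mutant values were lower, by a gap of 0.03 on the log2 scale. The difference was -0.12 (SE 0.48, n = 2 per genotype, 95% interval -1.19 to 0.96, adjusted p = 0.969, limma). CYP71B22 had 335.5 and 267.8 in the wild type and 423.4 and 272.7 in the mutant, and CYP71B21 had 163.3 and 38.6 against 184.3 and 100.9. Their groups overlapped, at differences of 0.15 and 0.39. CYP71B16, the first gene of the stretch, differed by 1.01. Its values were 260.8 and 37.0 in the wild type and 214.8 and 431.6 in the mutant, so the groups overlapped here too.

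CYP71B24, CYP71B25 and CYP71B26 lie between these blocks and varied widely between arrays of 1 genotype. CYP71B24 had 12.1 and 390.2 in the wild type and 344.2 and 19.8 in the mutant. The arrays of either genotype were thus further apart, 32.2-fold and 17.4-fold, than the genotype means, which differed by -0.01. CYP71B25 had 31.4 and 66.5 in the wild type and 18.1 and 494.4 in the mutant. CYP71B26 had 907.9 and 581.3 in the wild type and 136.2 and 813.3 in the mutant. For both genes a single mutant array set the difference, which was 0.92 and -0.90. Without mutant array 2 the difference of CYP71B25 was -0.42, and without mutant array 1 that of CYP71B26 was 0.15.

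**Figure D2:**
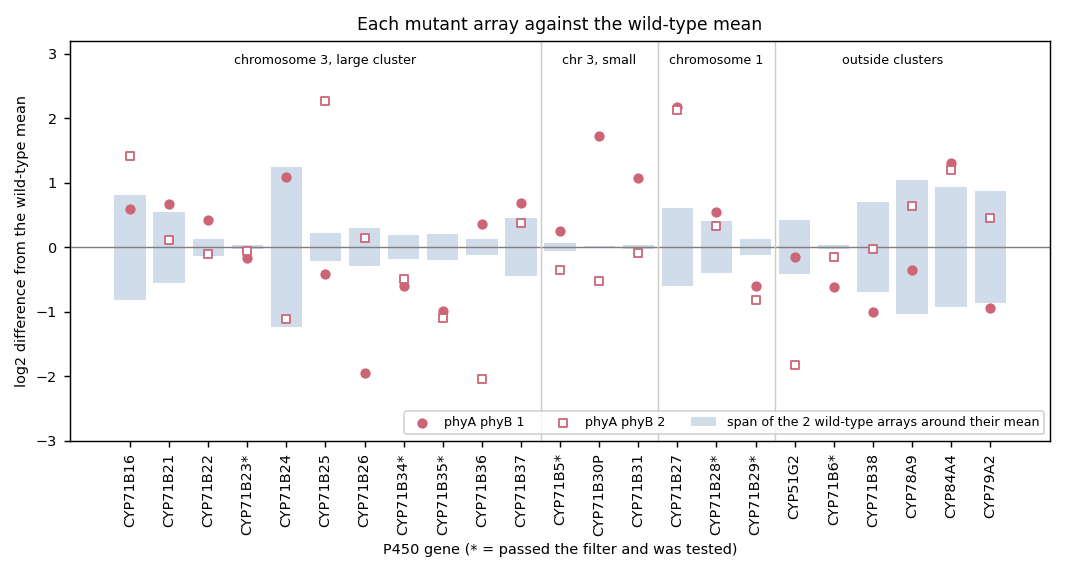
Log2 difference of each mutant array from the mean of the wild-type arrays (red circle for array 1, red square for array 2), with the span of the wild-type arrays as a blue bar. Genes are grouped as neighbours in the genome, and stars mark tested genes. The mutant points of CYP71B34, CYP71B35 and CYP71B29 lie close together below the bar, those of CYP71B27 lie above it, and those of CYP71B24, CYP71B25, CYP71B26 and CYP71B36 lie far apart.

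On chromosome 1, CYP71B27, CYP71B28 and CYP71B29 lie within 5 neighbouring genes, and each had its own pattern. CYP71B29 (AT1G13100) had 1328 and 1111 in the wild type and 771.8 and 655.6 in the mutant, without overlap. Its difference was -0.72 (SE 0.38, n = 2 per genotype, 95% interval -1.58 to 0.14, adjusted p = 0.716, limma). CYP71B28 (AT1G13090), directly beside it, had 1017 and 1834 in the wild type and 2021 and 1725 in the mutant. Here 1 mutant array lay above both wild-type arrays and the groups overlapped. The difference was 0.43 (SE 0.34, 95% interval -0.34 to 1.20, adjusted p = 0.794, limma).

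CYP71B27 (AT1G13070), which RefSeq lists as a transcribed pseudogene, had the highest difference of the 23 genes. Its intensities were 167.7 and 32.2 in the wild type and 632.1 and 607.5 in the mutant. Both mutant arrays were above both wild-type arrays, and the mutant arrays were nearly equal. The log2 difference was 2.14, from 7.29 ± 0.86 to 9.43 ± 0.04 (SD, n = 2 each). The wild-type value of 32.2 lay below the pseudocount of 70.1, which therefore sets much of this size. The difference was 3.08 without a pseudocount and 1.17 with one of 323.9. The probe set fell below the filter. In the limma fit without a filter it had an unadjusted p of 0.0215 (95% interval 0.40 to 3.89) and an adjusted p of 0.762. That fit called 0 of the 23 genes, against 0.0132% of all probe sets. In it 2 of the 23, CYP71B27 and CYP71B34, had an unadjusted p under 0.05, against 6.3% of all probe sets, and the adjusted p was 0.783 for CYP71B34.

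The second group on chromosome 3 holds CYP71B5, CYP71B30P and CYP71B31. CYP71B5 (AT3G53280) had 1590 and 1748 in the wild type and 2002 and 1287 in the mutant, with 1 mutant array on each side of the wild type. The difference was -0.05 (SE 0.31, n = 2 per genotype, 95% interval -0.76 to 0.66, adjusted p = 0.98, limma). That interval leaves out a change of 2-fold in either direction. CYP71B30P, named as a pseudogene although RefSeq lists it as protein coding, had 61.6 and 63.4 in the wild type and 365.6 and 21.6 in the mutant. CYP71B31, which encodes an enzyme of linalool metabolism known from flowers, had 56.1 and 62.8 against 201.1 and 51.4. For both genes mutant array 1 was above the wild type and mutant array 2 below it. Their differences were 0.59 and 0.49.

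The remaining CYP71B genes stand outside these groups. CYP71B6 (AT2G24180) encodes an enzyme that turns indole-3-acetonitrile, a product of the tryptophan pathway, into indole-3-carboxylic acid and its aldehyde. It had 6052 and 5836 in the wild type and 3847 and 5319 in the mutant. Both mutant arrays were lower, mutant array 2 by little. The difference was -0.39 (SE 0.25, n = 2 per genotype, 95% interval -0.95 to 0.17, adjusted p = 0.743, limma), with mutant array 1 alone at -0.62 and mutant array 2 alone at -0.16. The lower end of the interval lies just short of a 2-fold decrease. With equal array medians the difference was -0.45. CYP71B38 had 560.5 and 169.4 in the wild type and 124.3 and 309.1 in the mutant, with overlap and a difference of -0.52.

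**Figure D3:**
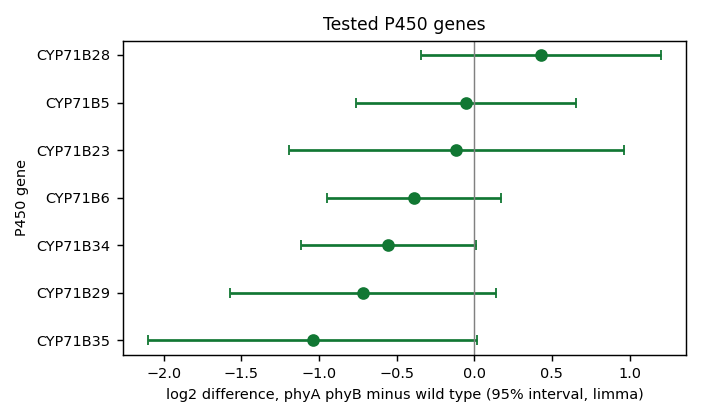
Log2 difference, phyA phyB minus wild type, of the 7 tested P450 genes with 95% intervals from limma (n = 2 arrays per genotype). Every interval includes 0, and those of CYP71B34 and CYP71B35 end at 0.01 and 0.02.

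Of the genes outside CYP71B, CYP84A4 had the highest difference. It belongs to the family of ferulate 5-hydroxylase and acts in the synthesis of arabidopyrones, which derive from phenylpropanoids. Its intensities were 728.7 and 151.4 in the wild type and 966.0 and 893.9 in the mutant. Both mutant arrays were above both wild-type arrays, but the wild-type arrays were 4.81-fold apart. The difference was 1.25, and without wild-type array 2 it was 0.32. CYP84A4 was the brightest gene below the filter's limit, with a mean log2 value of 9.34, and CYP71B23 the dimmest above it, at 9.47. When the filter used mean intensity instead, CYP84A4 was tested in place of CYP71B23 and had an adjusted p of 0.732 (limma). Of the 20 other phenylpropanoid and flavonoid genes listed, 2 had a probe set. HCT, for the hydroxycinnamoyl transferase of the lignin branch, had 17102 and 12499 in the wild type and 13686 and 17066 in the mutant, an overlap with a difference of 0.06 (adjusted p = 0.964, limma). DFR, for dihydroflavonol reductase, was below the filter, with 211.0 and 612.9 in the wild type and 367.9 and 241.5 in the mutant. The groups overlapped at -0.25, and the difference was 0.39 without wild-type array 2.

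CYP79A2 converts phenylalanine to its aldoxime in the synthesis of benzylglucosinolate. It had 55.6 and 348.3 in the wild type and 49.0 and 243.6 in the mutant. The arrays of either genotype were 6.26-fold and 4.97-fold apart, and the genotype means differed by -0.25. Among 19 glucosinolate partner genes listed, 3 had a probe set. UGT74B1, for the glucosyltransferase that acts downstream of the aldoximes, had 2736 and 2765 in the wild type and 1315 and 2994 in the mutant, a difference of -0.45 (adjusted p = 0.796, limma). A single mutant array set it, and without mutant array 1 the difference was 0.12. GSTU20, for a glutathione transferase, had 1767 and 2277 in the wild type and 3119 and 2616 in the mutant. Its groups did not overlap, at 0.50 (adjusted p = 0.718, limma). BCAT4, for the aminotransferase that starts methionine chain elongation, was below the filter and not tested. It had 620.3 and 265.2 in the wild type and 161.7 and 501.5 in the mutant, an overlap with a difference of -0.40, which was 0.12 without wild-type array 1 and 0.25 without mutant array 1. Of the 2 tested, 0 passed.

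CYP78A9 promotes growth of fruits and seeds. It had 51.8 and 442.6 in the wild type and 125.1 and 317.2 in the mutant, so the groups overlapped, at a difference of 0.14. CYP51G2 is related to the sterol 14-demethylase of the sterol pathway, and RefSeq lists it as a transcribed pseudogene. It had 566.7 and 1078 in the wild type and 700.3 and 170.0 in the mutant. Mutant array 2 was far below the others, and the difference was -0.99. From the other pathway lists, LYC, for lycopene cyclase, differed by -0.33 (adjusted p = 0.764, limma) and JMT, for jasmonate methyltransferase, by -0.19 at intensities of at most 32.9. The lists of P450s for brassinosteroids, gibberellins, abscisic acid, cytokinins, strigolactone, jasmonate, cutin and suberin, sterols and carotenoids matched no gene named in the annotation used here, in which 8730 probe sets are not listed and which may be incomplete. Hormone metabolism by P450s was therefore not analysed here. CYP718, a P450 whose symbol has no subfamily letter, was left out by the form of its symbol. Its difference was -0.10.

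The spread between arrays of 1 genotype was wide for most of the P450 genes below the filter, as it was for untested probe sets in general. Among the 16 untested genes, 15 had a genotype whose arrays differed at least 2-fold in intensity, against 80.2% of untested probe sets, and the exception was CYP71B22. Among the 7 tested genes 0 did, against 13.6% of tested probe sets. The mutant arrays lay on either side of the wild-type mean for 9 of the 16 untested genes, against 40.8% of untested probe sets. Both mutant arrays were above both wild-type arrays for 2 of the 16, CYP71B27 and CYP84A4, against 16.4%, and below them for 0, against 16.1%. At least 1 intensity lay below the pseudocount of 70.1 for 10 of the 23 genes. The genotype difference was larger than the replicate range of either genotype for 5 of the 23, against 22.7% of all probe sets. These were CYP71B34, CYP71B35, CYP71B29, CYP71B27 and CYP71B23, the last by 0.12 against 0.11.

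**Figure D4:**
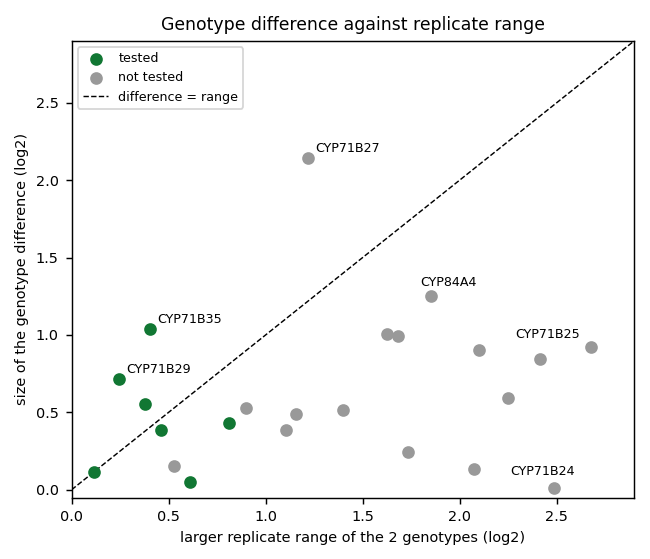
Size of the genotype difference (log2) against the larger of the 2 genotypes' replicate ranges (log2) for each of the 23 P450 genes, tested genes in green and untested ones in grey. On the dashed line they are equal. CYP71B27, CYP71B35 and CYP71B29 lie above the line, while CYP84A4, CYP71B24 and CYP71B25 lie below it.

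Levels of seed markers also differed between the arrays. Of 22 listed seed markers, 8 had a probe set, all of them tested, and 2 rose in the mutant at an adjusted p under 0.05 in limma. They were the vicilin-like storage protein gene PAP85 (3.29, adjusted p = 0.0237) and the late embryogenesis gene M17 (3.74, adjusted p = 0.0276). In the limma fit without a filter both had an adjusted p of 0.0528. Means were higher in the mutant for all 8 seed markers, beside 6883 of 13648 tested probe sets. The median of their log2 differences was 2.83, the oleosin gene OLEO3 had overlapping groups at 0.23, and none was at 0. Their summed intensity was 31111 and 30305 in the wild type, 333420 on mutant array 1 and 115431 on mutant array 2. Against the wild-type mean, the 7 tested P450 genes had a median of -0.61 for mutant array 1 and of -0.36 for mutant array 2. The 16 untested P450 genes had 0.51 and 0.12, all 23 had 0.25 and -0.06, and all tested probe sets had -0.001 and 0.03. The part of seed RNA in the P450 values was not tested.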

How the data were processed

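The deposited values were linear intensities, 1 for each probe set on each array. Software, detection calls and the scaling target are not given in the sources used here. Means trimmed by 2% at each end differed by 0.0946% between arrays, so the deposited scaling was kept. The labels do not say whether replicates were grown separately, so the spread behind the p-values may be technical. Of 22746 probe sets, 13513 had 1 annotated gene, 503 several and 8730 were not listed. RefSeq matched 13436. Each of the 23 P450 genes had 1 probe set. Probe sequences were not used, so cross-hybridisation between related CYP71B genes was not examined, and intensities of different probe sets are not compared as transcript levels.

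The pseudocount of 70.1 was the 10th percentile of all intensities. The brightest 60% of probe sets by mean log2 value were fitted with limma 3.58.1 in R 4.3.3 (lmFit, eBayes with trend, 9.2 total degrees of freedom), with Benjamini-Hochberg adjustment over all 13648. Called differences were at least 1.97 in size. With 2 arrays per genotype, the number of arrays limits the precision. The procedure was also run on simulated data with noise drawn separately for each value. Such noise lacks differences shared by a whole array, so no conclusion is drawn from that run. The members and gene lists were chosen with earlier results of these data known. Genes were named by a rule: called genes, the 12 highest and 12 lowest tested, the 10 brightest, and list members. The others are named to account for every gene. A list of P450s under other symbols matched no P450. Of 9 leaf markers, 2 had probe sets: LHCB4.2 differed by -0.27 and RCA by 0.43. Figures used matplotlib 3.10.9.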

Additional observations from a re-analysis of the deposited data

How the results depend on the processing

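In limma 0 P450 genes were called under any normalization, pseudocount, filter, variance model or left-out array, and 0 at an adjusted p under 0.10. The lowest adjusted p of any P450 gene over these fits was 0.219. By 2-fold change without overlap, with no test, the count was 1 of 7, CYP71B35, at -1.04. Its difference was below 2-fold in some alternatives. It was -0.78 with the pseudocount of 323.9, -0.84 without wild-type array 2 and -0.99 without mutant array 2. The median over tested P450 genes was -0.39 and ran from -0.61 to -0.36 with each array left out. It was -0.22 over the 4 genes among the brightest 40% of probe sets, and -0.011 over the 23 genes that enter without the filter. Under the 4 scaling and pseudocount alternatives, 2 values of the 16 untested genes moved by more than 1 SD between replicates. Both were of CYP71B27 under other pseudocounts. The 7 tested genes were compared by their calls alone, not by this SD. Leaving out 1 array turned the sign of 12 of the 23 genes at least once, none of them called, and the largest shift took CYP71B25 from 0.92 to 2.26 without mutant array 1 and to -0.42 without mutant array 2. The count over all probe sets was 13. Dropping the filter gave 3, eBayes with no trend 1, an adjusted threshold of 0.10 gave 31, an unadjusted threshold of 0.05 gave 988 and fold without overlap 401. Fits that left out 1 array gave 6 to 422, the single remaining array being taken to vary like those of the other genotype. The cause was not tested. The filter by mean intensity was chosen after seeing the data. No paired analysis was possible because only replicate number 2 occurs in the labels of both genotypes. Signal over background was not given, so dim probe sets show little.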
